A study of Mus musculus with 26 samples.

Results

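The change from the metaphase II (MII) oocyte to the 10 h mouse embryo was examined in embryos cultured with 10058-F4, a small thiazolidinone inhibitor of c-Myc. The comparison set all 7 libraries of 10058-F4 embryos against all 4 libraries of MII oocytes, 11 of the 26 libraries of the series, and took every gene of the count table. The oocytes came from superovulated B6D2F1 females and were sampled at 0 h. The embryos were made by in vitro fertilization of B6D2F1 oocytes with B6D2F1 sperm and carry the label 10 h. 10058-F4 was in the medium for 10 h, starting 2 h after insemination, and no dose is given. It is unclear from which moment the 10 h of the label are counted, so equal age of treated and control embryos cannot be checked. The 7 control embryo libraries of the inhibitor series were made the same way without the drug. In a separate library series, 4 control embryo libraries and 4 libraries of embryos given alpha-amanitin at 100 µg/ml accompany the oocytes. Alpha-amanitin was added 1 h after insemination, also for 10 h. The 10058-F4 embryos and the oocytes thus belong to different library series, so that stage, drug and series cannot be told apart in their direct difference. For this reason, the main direct values are accompanied by the value with library series as a term of the fit, by the difference between 10058-F4 and control embryos of 1 series, or by that between control embryos and oocytes of the other series. The labels do not say plainly how many embryos or oocytes went into a library, so p-values speak only for the spread seen among these libraries.

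The MII oocyte is transcriptionally silent and carries a stock of stored mRNA. After fertilization, part of this stock is translated and then degraded, and the embryonic genome starts to be transcribed at a low level in the zygote and more fully at the 2-cell stage. c-Myc is a transcription factor that binds the E-box CACGTG as a dimer with Max and is known for raising genes of ribosome production, translation and cell growth. 10058-F4 is described as blocking that dimer, and alpha-amanitin blocks RNA polymerase II.

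The 11 libraries held 18588226 to 27266040 counts, so that 3 counts, the limit used for a gene without counts, corresponded to 0.110 to 0.161 counts-per-million (CPM) units. Genes with at least 1 count numbered 13797 to 17108 in oocytes and 15338 to 16547 in 10058-F4 embryos. The defining oocyte markers were present in both: Gdf9, Bmp15, Zp1, Zp2, Zp3, Nlrp5, Ooep and H1foo summed to 7092 to 7852 CPM in oocytes, 5925 to 7454 in 10058-F4 embryos and 3300 to 5031 in the control embryos of the inhibitor series. The 12 cumulus and granulosa markers summed to 15.4 to 34.5 CPM in oocytes, with Amh and Amhr2 at 0, and to 8.53 to 23.2 in 10058-F4 embryos. The 8 sperm markers summed to 4.89 to 17.5 CPM and 6.08 to 15.4 CPM, with Prm1, Smcp, Tnp1 and Tnp2 at 0 in both groups. Of 10 such quantities per library, 5 differed between 10058-F4 embryos and oocytes in an exact two-sided permutation test with adjustment over the 10: ribosomal RNA (0.658% ± 0.0921 of counts, n = 7, against 0.378% ± 0.130, SD, n = 4, adjusted p = 0.0202), long noncoding RNA (1.39% against 1.55%, 0.0202), the share of the top 100 genes (19.4% against 17.7%, 0.0202), nuclear protein-coding RNA (93.6% against 94.8%, 0.0303) and the oocyte marker sum (0.0485). The part of these library differences in the results below was not tested.

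Against oocytes, 1339 of 15423 genes tested were higher in 10058-F4 embryos, or 8.68%, and 1342 were lower, or 8.70% (edgeR quasi-likelihood test, adjusted p under 0.05). The difference was at least 2-fold for 401 of the higher and 550 of the lower genes. In control embryos of the same series, 1573 genes (10.2%) were higher than in oocytes and 1589 (10.3%) were lower. Because both sets of embryos are compared with the same 4 oocyte libraries, their values are given side by side and not correlated, and a shift between the library series would enter both. Of the genes higher in control embryos, 1001 were also called higher under the inhibitor (63.6% of 1573 and 6.49% of all genes tested). Of those lower in control embryos, 844 were also called lower (53.1% of 1589 and 5.47% of all).

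The falls were smaller under the inhibitor than without it. Over the 1589 genes lower in control embryos, the median log2 difference from oocytes was -1.06 in control and -0.66 in 10058-F4 embryos. Over the 869 of them that were at least 2-fold lower in control embryos, the medians were -1.57 and -0.98. Over the 1573 genes higher in control embryos, the medians lay closer together, at 0.70 without and 0.60 with the inhibitor. The genes were chosen by their call in control embryos, which favours larger values there. Tested directly within the inhibitor series, 780 genes (5.06%) were higher and 516 (3.35%) were lower in 10058-F4 than in control embryos.

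Most direct calls were not made once library series was a term of the fit. With series as a term, the difference between 10058-F4 and control embryos of 1 series is added to that between control embryos and oocytes of the other. In that fit 284 of 15715 genes (1.81%) were higher and 522 (3.32%) were lower in 10058-F4 embryos than in oocytes. Of the 2681 direct calls, 516 were made the same way and 5 the opposite way in that fit. Over the direct falls the median log2 difference was -0.86 directly and -0.72 with the term, and over the direct rises 0.70 and 0.45. Choice by the direct call favours larger direct values. Astl moved only from -0.74 to -0.69, but its standard error rose from 0.145 to 0.226 and its call was lost (adjusted p = 0.0698). How far lost calls reflect lower precision was not tested. The series themselves differed: between untreated 10 h embryos, 371 of 13594 genes (2.73%) were higher and 209 (1.54%) lower in the inhibitor series than in the alpha-amanitin series. Of the 2609 direct calls also tested there, 269 differed between the control embryos in the direction of the call, 172 of 1314 higher and 97 of 1295 lower. Within the other series, control embryos against oocytes gave 146 of 13133 genes higher (1.11%) and 234 lower (1.78%), and alpha-amanitin embryos against oocytes 58 (0.442%) and 167 (1.27%). These last counts rest on few libraries. Without 1 oocyte library the 146 became 63, 70, 86 or 75 (replicates 1 to 4), without control replicate 2 or 4 of that series 78 or 86, and without alpha-amanitin replicate 3 they became 291. The 234 became 149 and 146 without oocyte replicates 1 and 4, and 434 without alpha-amanitin replicate 3. The count between the control series fell to 231 higher and 139 lower without inhibitor-series control replicate 1 and to 243 higher without replicate 2. A fit of all 26 libraries, with the larger spread of the alpha-amanitin series in it, called 560 genes higher and 537 lower in 10058-F4 embryos than in oocytes.

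**Figure D1:**
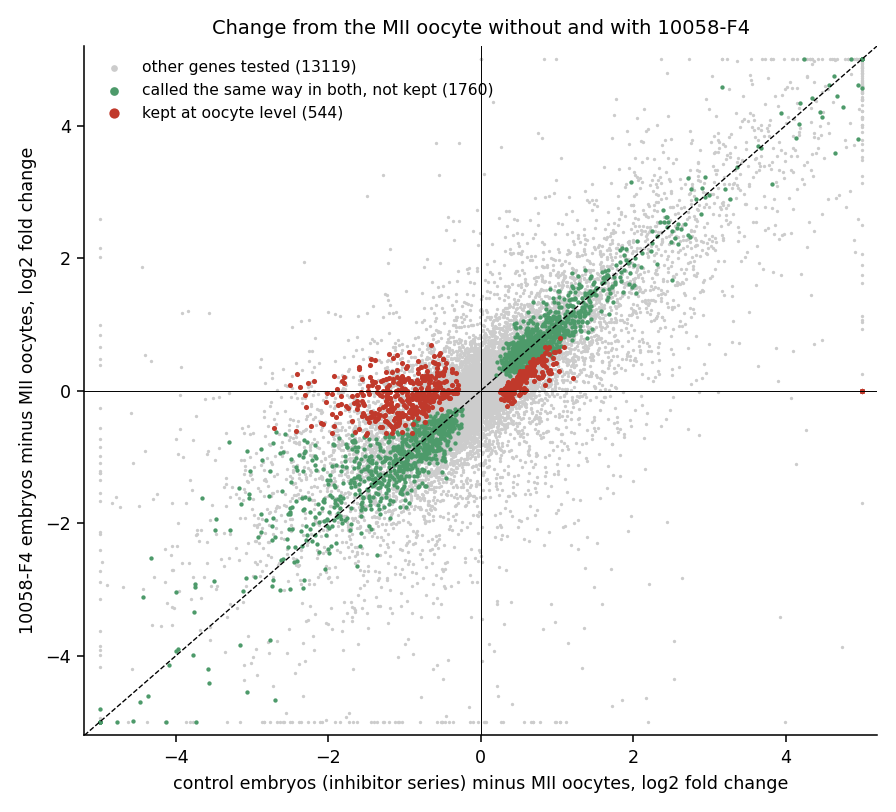
Each point is 1 of 15423 genes, with the log2 fold change from MII oocytes to control embryos of the inhibitor series on the horizontal axis and to 10058-F4 embryos on the vertical axis; the dashed line marks equal change, both axes share the 4 oocyte libraries, and 560 genes beyond 5 on either axis are drawn at 5. The 544 genes kept at oocyte level lie within 1 of the horizontal zero line by their definition, and 1760 further genes called the same way in both lie along the diagonal.

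Genes were counted as kept at oocyte level when control embryos differed from oocytes, 10058-F4 embryos differed from control embryos in the opposite direction, and the 95% interval of 10058-F4 embryos minus oocytes lay within 2-fold. This held for 544 genes. For 363 of them (2.35% of all genes tested) the control embryos were lower than oocytes, and for 181 (1.17%) they were higher. Of these 3 conditions, 10058-F4 against control lies within 1 library series, and the other 2 compare libraries of different series. At the edge of the interval, Hyou1 (log2 0.69, interval 0.39 to 1.00), Bub1b (-0.62, -1.0 to -0.24) and Zc3h15 (0.79, 0.59 to 0.99) were just inside. Susd6, Smarca2 and Arl8b were just outside, with log2 differences of -0.36, 0.80 and -0.71. Among the kept genes, 98 were at the same time called different from oocytes. Of these, 40 kept rises and 45 kept falls were called the same way as in control embryos. They also count as changed with and without the inhibitor. A further 80 genes met the first 2 conditions and were not called against oocytes, but their interval did not lie within 2-fold. For 11 of these 80 the difference from oocytes was itself at least 2-fold. The bound also admits genes that changed by less than 2-fold in control embryos. Changes of 2-fold or more in control were held by 173 of the 363 kept falls and 12 of the 181 kept rises. Near or below that size, the bound cannot tell a full from a partial return. Pnisr was at 0.65 under the inhibitor and 1.10 in control embryos, and Zc3h15 at 0.79 and 1.05. A bound of 1.5-fold left 333 of the 544, and the fit of all 26 libraries left 182.

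The kept genes were mostly transcripts that control embryos had lost. Of the 869 genes at least 2-fold lower in control embryos, 173 (19.9%) were kept near oocyte level under the inhibitor and 468 (53.9%) were called lower as in control. These counts share 33 genes. Of the 480 at least 2-fold higher in control embryos, 12 (2.5%) were kept and 347 (72.3%) were called higher, with 3 genes in both counts. Of the 12, 7 had 0 counts in oocytes and in 10058-F4 embryos, so that they met the 2-fold bound by construction. Over the 363 kept falls the median log2 difference from oocytes was -0.07 in 10058-F4 embryos, -0.96 in control embryos of the same series, -1.13 in control embryos of the oocytes' own series and -1.0 in alpha-amanitin embryos, all against the same oocytes. With series as a term the inhibitor median was -0.21, beside -0.09 over all genes.

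The classes were also taken library by library as a share of all counts, with shared genes counted in each class. The 363 kept falls took 8.11% to 8.22% of the counts in the 4 oocyte libraries and 6.88% to 7.91% in the 7 libraries of 10058-F4 embryos. In the 7 control libraries of the inhibitor series they took 3.63% to 4.52%, in the 4 control libraries of the other series 3.53% to 3.96%, and in the 4 alpha-amanitin libraries 3.64% to 4.06%. No control or alpha-amanitin library thus reached the lowest 10058-F4 library. The choice of genes used the oocyte, 10058-F4 and inhibitor-series control libraries, so that their separation is a description. The 8 libraries of the other embryo groups had no part in it. The 844 genes lower with and without the inhibitor took 13.6% to 14.2% of the counts in oocytes, 7.67% to 8.20% under the inhibitor and 6.81% to 7.48% in control embryos. The 1001 genes higher in both took 15.8% to 17.2% in oocytes, 24.7% to 25.9% under the inhibitor and 25.3% to 26.1% in control embryos. In both embryo groups of the other series that share was 20.7% to 22.6%, below every library of the inhibitor series. In bulk RNA of whole embryos, a share shows how transcripts compare with each other and not the number of molecules per embryo.

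**Figure D2:**
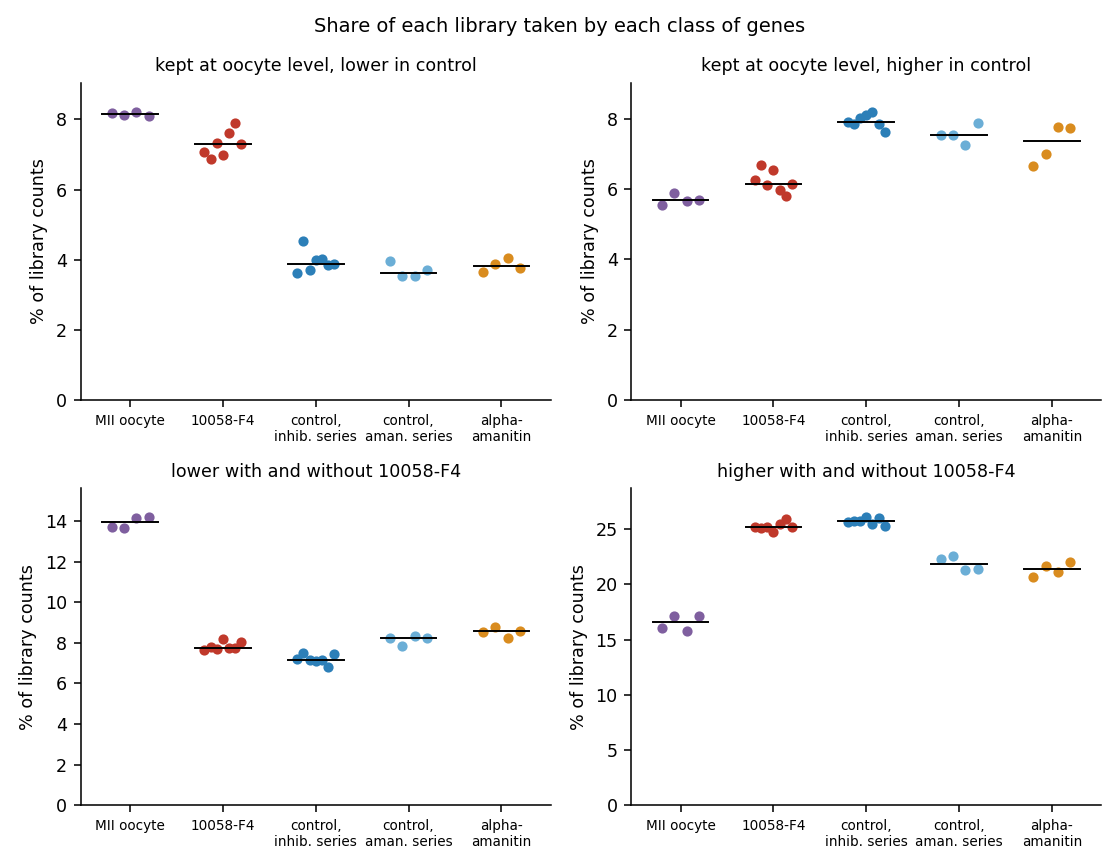
Each point is 1 library and each panel 1 class of genes, with the percentage of the library's counts on the vertical axis and a line at the group median. Genes that belong to a kept and to a changed class count in both panels. In the panel of kept falls, the 10058-F4 libraries (6.88% to 7.91%) sit near the oocytes (8.11% to 8.22%), while control and alpha-amanitin libraries of both series lie between 3.53% and 4.52%.

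Gdf9, which encodes a growth factor that the oocyte secretes to the surrounding follicle cells, lies at chr11:53431023-53437904 (GRCm38, as all positions here). It stood at 2141, 1898, 2240.0 and 1961 CPM in the 4 oocyte libraries. In 10058-F4 embryos it ranged from 1670.1 to 2408 with a median of 1759.9, and in control embryos from 315 to 612 with a median of 377. Every 10058-F4 library lay above every control library and the range overlapped that of the oocytes. The log2 difference from oocytes was -0.07 ± 0.14 (SE, adjusted p = 0.824), and -0.45 with series as a term (0.262). Control embryos fell by 2.30 on the log2 scale in this series and by 2.69 in the oocytes' own series. Bmp15, the partner growth factor from the X chromosome, behaved otherwise: oocytes held 1976, 1501, 2186 and 1786 CPM, 10058-F4 embryos 1058 to 1343 with a median of 1229, and control embryos 1161 to 1768 with a median of 1297. Its direct log2 difference of -0.61 (adjusted p = 7.25e-05) was not called with series as a term (-0.21, adjusted p = 0.454), and the 2 control groups themselves differed by -0.40 (0.0436).

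Dcp1a, an activator of mRNA decapping, was at 1884, 1979.8, 2317 and 2038 CPM in oocytes (chr14:30479535-30527063). It was at 1158 to 2540.4 CPM under the inhibitor, median 2012, and at 441 to 1027 in control embryos, median 616. The 10058-F4 values spread around those of the oocytes and none overlapped the controls. The log2 difference from oocytes was -0.06 ± 0.19 (adjusted p = 0.893), that between 10058-F4 and control embryos 1.49 ± 0.16 (1.44e-07). The former was -0.23 with series as a term (0.727), and control embryos of the oocytes' own series differed by -1.74. Upf1, the helicase of nonsense-mediated decay, gave 559, 607, 496 and 659 CPM in oocytes, 299 to 807 under the inhibitor (median 545) and 164 to 329.8 in control embryos (median 249). Its lowest 10058-F4 library reached into the control range, and its difference from oocytes was -0.02, and -0.64 with series as a term (adjusted p = 0.237). Lsm14b, a component of stored mRNA particles, was kept as well but lay higher than in oocytes, at 1744 to 1989 CPM under the inhibitor against 1363, 1447, 1302 and 1496. That rise of 0.42 was not called with series as a term (0.25, adjusted p = 0.441) or in the fit of all 26 libraries.

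H1foo encodes the linker histone of the oocyte (chr6:115944938-115950236). Oocytes held 1248, 1370.3, 1057 and 1339 CPM, 10058-F4 embryos 1520.2 to 2158 with a median of 1709, and control embryos 369.8 to 963 with a median of 504. All 7 10058-F4 libraries were above all 4 oocyte libraries, a log2 difference of 0.49 ± 0.17 (adjusted p = 0.0437) that turned to -0.21 (0.688) with series as a term. That call was also lost with DESeq2, in the fit of all 26 libraries, and without 10058-F4 replicate 2, 4, 5, 7 or 8 or any 1 oocyte library. Zar1, an RNA-binding protein of the stored mRNA pool, stood at 706, 651, 609.6 and 797 CPM in oocytes, 478 to 667 under the inhibitor (median 511) and 214 to 367 in control embryos (median 268). It lay between the other groups, above every control library. Its call against oocytes (-0.35, adjusted p = 0.041) was lost without any 1 library of the fit other than 10058-F4 replicate 4, control replicate 1, 2 or 8 or oocyte replicate 3, while that against control embryos (1.00) was not. Trim28, a corepressor that protects imprints, was at 252, 255, 232 and 218 CPM, then 243 to 306 (median 255) and 93.4 to 175 (median 125), and differed from oocytes by 0.13, and by -0.48 with series as a term (0.212).

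Bub1b encodes the spindle checkpoint kinase BubR1 (chr2:118598211-118641591). It was at 1339, 1869.8, 1366 and 1943 CPM in oocytes, 856 to 1377 under the inhibitor (median 1116) and 197 to 509 in control embryos (median 275). All 10058-F4 libraries lay above all controls, and their upper end met the lower oocyte libraries. The fall from the oocyte was 0.62 on the log2 scale (adjusted p = 0.0193) and the value with series as a term was -1.75 (0.000412), beside -2.42 in control embryos. The call against oocytes was lost without oocyte replicate 2 or 4, with DESeq2 and with all 26 libraries, while the difference from control embryos, 1.80 ± 0.17 (5.73e-09), was not. Espl1, the separase that cleaves cohesin, was kept too, with log2 differences of 0.24 from oocytes and 0.79 from control embryos, the latter not called in the fit of all 26 libraries.

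The kept falls named by size alone had less familiar roles in the oocyte. Dse, a dermatan sulfate epimerase, was at 112, 121, 111 and 126 CPM in oocytes, 97.1 to 151 under the inhibitor (median 123) and 10.0 to 27.9 in control embryos (median 24.8). Taldo1, the transaldolase of the pentose phosphate pathway, was at 40.3, 37.7, 33.9 and 28.8 CPM, then 30.9 to 55.9 (median 42.1) and 2.71 to 13.9 (median 5.13). Unc5a, a netrin receptor, was at 58.6, 60.6, 59.0 and 55.1 CPM, then 41.0 to 98.7 (median 62.9) and 5.48 to 22.7 (median 11.8). In all 3, the 10058-F4 range spanned or overlapped the oocytes and stayed clear of the controls. Foxred2 and Tmem59 followed the same pattern, with medians of 51.3 and 42.4 CPM under the inhibitor against 9.52 and 9.23 in control embryos. Neo1, another netrin receptor, stood at 129, 176, 108 and 178 CPM, 73.0 to 142 (median 94.4) and 15.7 to 32.7 (median 21.1). Its direct difference from oocytes was -0.56 (adjusted p = 0.0394), 0.20 with series as a term (0.827), and was no longer called without oocyte replicate 2 or 4, control replicate 4 or 10058-F4 replicate 1, 2, 3 or 4. Across these 6 genes the log2 difference between 10058-F4 and control embryos ran from 2.06 (Tmem59) to 2.66 (Taldo1). Their differences from oocytes with series as a term were -0.31 for Dse, 0.41 for Taldo1, -0.25 for Unc5a, -0.65 for Foxred2 and -0.55 for Tmem59, none called. The difference of Unc5a from control embryos was not called in the fit of all 26 libraries.

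**Figure D3:**
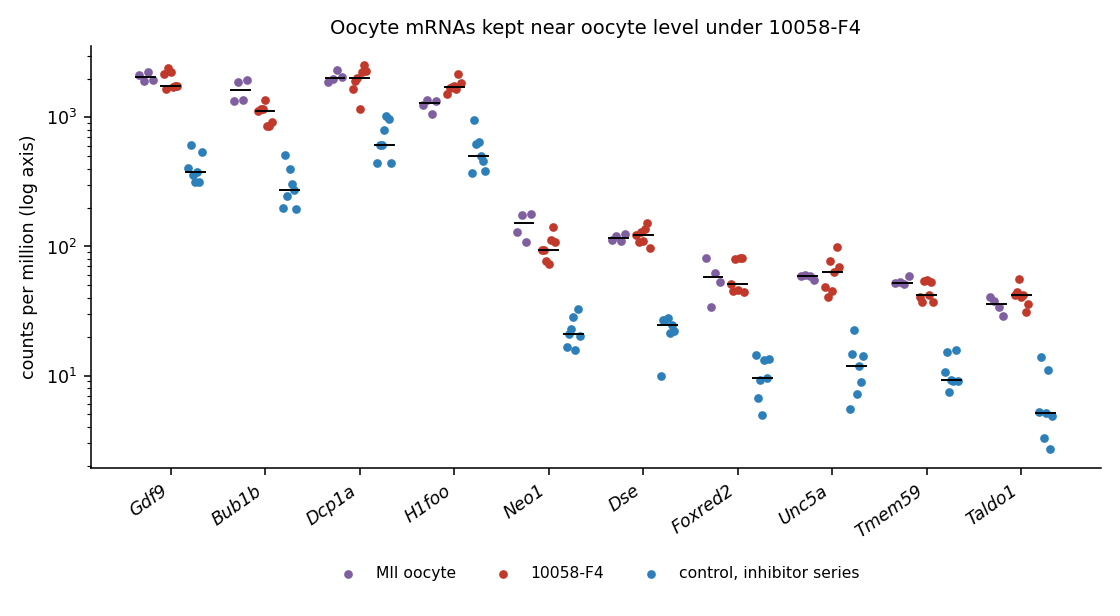
CPM on a log axis for 10 mRNAs, 1 point per library, in MII oocytes (4), 10058-F4 embryos (7) and control embryos of the inhibitor series (7), with a line at each group median. For each gene the 10058-F4 points lie above the control points, as for Gdf9 at 1670.1 to 2408 against 315 to 612. They overlap the oocyte points except for H1foo, where all lie above them. For Bub1b, all but that of 10058-F4 replicate 4 lie below the oocyte points.

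Sensors of unfolded protein in the endoplasmic reticulum stood among the kept falls. Of 38 genes of the unfolded protein and integrated stress response tested, 14 were lower in control embryos than in oocytes and 8 were kept at oocyte level, where 2.35% of all genes were. The median log2 difference of the list from oocytes was -0.45 in control and 0.00 in 10058-F4 embryos, and -0.30 for the latter with series as a term, beside -0.09 over all genes. The kept falls were Ern1, Eif2ak1, Syvn1, Pdia6, Dnajc3, Creld2, Slc3a2 and Atf6, picked for naming after their values were seen. Ern1, which encodes the sensor IRE1, was at 2478, 2605, 2674 and 2749 CPM in oocytes (chr11:106394650-106487852). It was at 1796 to 3276 under the inhibitor, median 2467, and at 611 to 1039 in control embryos, median 869. The inhibitor range spanned the oocytes and did not overlap the controls, with log2 differences of -0.08 ± 0.14 (adjusted p = 0.798) and 1.61 ± 0.12 (1.25e-10). The former was -0.03 with series as a term, and control embryos of the oocytes' own series differed by -1.65. Eif2ak1, the heme-regulated kinase of eIF2, gave 274, 304, 284 and 303 CPM, then 221 to 352 (median 286) and 124 to 151 (median 133). Syvn1, the ubiquitin ligase of the degradation pathway of that compartment, differed from control embryos by 1.12, a call that the fit of all 26 libraries did not make. In that list 3 genes were higher and 6 lower than in oocytes under the inhibitor, and 0 and 5 with series as a term. Over all genes, 8.68% were higher and 8.70% lower directly, and 1.81% and 3.32% with that term. Among the 6 were Ppp1r15b (-1.17) and Manf (-1.06), which had also fallen in control embryos (-1.67 and -1.15).

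The kept rises were small. Over the 181 genes the median log2 difference from oocytes was 0.52 in control and 0.14 in 10058-F4 embryos, and it was 0.44 in control and 0.39 in alpha-amanitin embryos of the oocytes' series. As a share of counts they took 5.54% to 5.90% in oocytes, 5.79% to 6.68% under the inhibitor, 7.63% to 8.20% in control embryos, and 6.65% to 7.88% in the other series. The 10058-F4 range met that of the oocytes at its lower end and that of alpha-amanitin embryos at its upper end. The count was not firm: it was 39 in the fit of all 26 libraries and 273 with DESeq2, and 120, 114, 118 and 118 without inhibitor-series control replicate 4, 5, 6 or 7.

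Ccnb1, the cyclin B1 that drives entry into M phase, was at 464, 368, 458 and 350.3 CPM in oocytes (chr13:100778650-100786570). It was at 397 to 595 under the inhibitor, median 545, and at 668 to 898 in control embryos, median 713. The 10058-F4 libraries overlapped the oocytes and lay below every control library. The difference from oocytes was 0.30 ± 0.12 (adjusted p = 0.0786) and that from control embryos -0.58 ± 0.10 (0.000202). In the oocytes' own series, control embryos differed by 0.10 (0.947), and the 2 control groups differed by 0.76 (0.001), so the rise in control embryos was not seen in both series. The direct difference passed the threshold without 10058-F4 replicate 7 or 8.

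Among kept rises with a mean of at least 10 CPM in control embryos, predicted genes left out, the 8 largest had log2 values of 0.95 to 1.10 in control embryos. Pnisr and Prpf38b, both linked to splicing, stood at 112, 89.2, 83.2 and 82.1 CPM and at 132, 177, 143 and 167 CPM in oocytes. Under the inhibitor they reached 123 to 173 (median 142) and 186 to 281 (median 245), and in control embryos 162 to 234 (median 193) and 257 to 381 (median 306). Both lay above all oocyte libraries, with medians below those of the controls, whose ranges they overlapped. Txlng, a binding partner of syntaxins, was at 133, 170.3, 133 and 193 CPM, then 205 to 246 (median 217) and 270.4 to 335 (median 304). Atic, which carries out the last steps of purine synthesis, was at 20.8, 36.2, 23.8 and 21.7 CPM, then 20.3 to 48.4 (median 34.2) and 41.2 to 62.6 (median 49.4). Of the 8 genes named in this class, Pnisr, Zc3h15, Prpf38b, Ccdc66, Atic, Noc3l, Ik and Txlng, all but Txlng lost their call against control embryos in the fit of all 26 libraries. Zc3h15, Ccdc66, Atic and Noc3l also lost it in many of the fits without 1 library. With series as a term, Ccdc66 turned from 0.30 to -2.26 (adjusted p = 0.00537) and Txlng from 0.49 to -0.01 (0.994).

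The promoters of these genes are shown because CACGTG is the motif of the Myc-Max dimer that 10058-F4 targets. Each is the RefSeq sequence from 250 bases before to 50 bases after the start (GRCm38.p6), 5′ to 3′ on the gene's own strand, with CACGTG in capitals. The motif reads the same on both strands. Atic (chr1:71556906-71557205, plus strand) and Txlng (chrX:162829405-162829704, minus strand) were picked afterwards because they hold it. Zc3h15 (chr2:83644328-83644627, plus), Prpf38b (chr3:108911680-108911979, minus) and Ccdc66 (chr14:27508411-27508710, minus) were taken for the size of their rise in control embryos. Hmgb3 (chrX:71555667-71555966, plus) was taken as the largest direct rise among genes of at least 10 CPM with no overlap of the groups that were called both with and without series as a term.
Atic: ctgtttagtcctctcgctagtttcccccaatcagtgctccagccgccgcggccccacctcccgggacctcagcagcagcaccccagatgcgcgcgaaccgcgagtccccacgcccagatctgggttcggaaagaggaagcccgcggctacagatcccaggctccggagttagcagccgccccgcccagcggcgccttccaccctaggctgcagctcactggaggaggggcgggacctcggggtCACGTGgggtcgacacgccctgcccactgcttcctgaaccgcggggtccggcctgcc
Txlng: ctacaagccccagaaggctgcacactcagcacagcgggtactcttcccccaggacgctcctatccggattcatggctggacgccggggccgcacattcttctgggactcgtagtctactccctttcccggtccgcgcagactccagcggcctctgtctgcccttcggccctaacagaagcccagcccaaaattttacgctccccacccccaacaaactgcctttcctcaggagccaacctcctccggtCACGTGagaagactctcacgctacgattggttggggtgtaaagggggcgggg
Zc3h15: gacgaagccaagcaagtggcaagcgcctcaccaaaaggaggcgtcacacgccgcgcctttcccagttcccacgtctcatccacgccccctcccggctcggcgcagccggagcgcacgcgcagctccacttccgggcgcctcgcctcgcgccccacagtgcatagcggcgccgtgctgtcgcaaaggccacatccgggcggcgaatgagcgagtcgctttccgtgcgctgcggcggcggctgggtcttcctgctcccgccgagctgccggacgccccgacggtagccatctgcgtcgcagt
Prpf38b: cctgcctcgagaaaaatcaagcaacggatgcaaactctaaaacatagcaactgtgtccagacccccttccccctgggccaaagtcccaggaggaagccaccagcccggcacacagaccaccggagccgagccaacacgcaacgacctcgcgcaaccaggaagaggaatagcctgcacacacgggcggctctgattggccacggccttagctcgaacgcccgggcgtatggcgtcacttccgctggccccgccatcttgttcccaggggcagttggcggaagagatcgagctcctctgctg
Ccdc66: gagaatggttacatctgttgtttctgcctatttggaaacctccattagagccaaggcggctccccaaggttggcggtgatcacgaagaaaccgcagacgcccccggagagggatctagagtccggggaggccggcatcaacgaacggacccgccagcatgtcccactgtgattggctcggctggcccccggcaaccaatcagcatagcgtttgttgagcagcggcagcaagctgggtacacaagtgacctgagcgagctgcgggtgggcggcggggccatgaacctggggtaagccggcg
Hmgb3: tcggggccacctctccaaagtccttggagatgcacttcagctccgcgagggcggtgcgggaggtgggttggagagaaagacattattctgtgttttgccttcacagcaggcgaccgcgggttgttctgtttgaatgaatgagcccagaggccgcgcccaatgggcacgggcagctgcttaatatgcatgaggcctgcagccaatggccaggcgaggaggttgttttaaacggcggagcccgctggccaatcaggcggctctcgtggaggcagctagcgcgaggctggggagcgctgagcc

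The capitals begin 7 bases before the start in Atic and 2 bases before it in Txlng. In the other 4 windows these letters do not occur, which says nothing about the factor elsewhere. Over all 27025 RefSeq promoters of this length 1957 hold CACGTG (7.24%), and over the genes tested 1057 of 10742 with a promoter (9.84%). The share was 16 of 136 (11.8%) for kept rises, 28 of 282 (9.93%) for kept falls, 79 of 739 (10.7%) for genes higher with and without the inhibitor and 61 of 593 (10.3%) for genes lower in both. A match is a run of letters and not a binding site, and the shares were not tested.

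A few transcripts were seen in control embryos and in neither oocytes nor 10058-F4 embryos. Duxf3, which encodes the transcription factor DUX of early genome activation, had 0 counts in all 4 oocyte and all 7 10058-F4 libraries. All 7 control libraries held it, at 0.215 to 8.34 CPM with a median of 4.92. Against the limit of 3 counts over each group, control embryos were at least 138-fold higher than oocytes and at least 239-fold higher than 10058-F4 embryos. Xbp1, the transcription factor downstream of Ern1, was likewise at 0 in both groups and present in 4 of 7 control libraries, up to 3.02 CPM. Duxf3 belongs to a family of near-identical copies, between which counting can split reads. The Xbp1 call against control embryos was lost with DESeq2, limma voom, the replicate block and all 26 libraries, and that of Duxf3 with DESeq2. Usp17lc, of a family of ubiquitin proteases of early genome activation, was at 2.04 to 12.9 CPM in control and 0 to 3.16 in 10058-F4 embryos. That difference did not pass the test (-3.26, adjusted p = 0.0603). It passed, with log2 values of -4.86 to -3.26, without 10058-F4 replicate 3 or oocyte replicate 1, 3 or 4. In all, 7 of the 544 kept genes were at 0 in both groups, the other 5 being Rgl3 and 4 predicted genes or pseudogenes. Without counts in either group, their log2 difference was 0 with an interval of no width. They thus met the 2-fold condition by construction. Hexim1, the inhibitor of the elongation factor P-TEFb, was at 0 in all 10058-F4 libraries and at 1.67 to 9.89 CPM in control embryos, but 1 oocyte library held 1.08 CPM. Its call against oocytes rests on that library, oocyte replicate 2. Gadd45g, a stress-response gene, was also at 0 in all 7 10058-F4 libraries, with 0, 0, 1.34 and 6.09 CPM in oocytes and 0.689 to 8.95 in control embryos. Zfp352 and Myc itself had 0 counts in oocytes and in 10058-F4 embryos, and reached at most 1.19 and 0.428 CPM in a control library. Absence here means below 3 counts, or 0.110 to 0.161 CPM per library.

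The falls considered next had at least 10 CPM in the higher group and no overlap of the groups, predicted genes left out. They were called lower both directly and with series as a term. The largest direct fall among them was that of March7, a ubiquitin ligase (chr2:60209887-60250676). Oocytes held 362, 574, 332 and 597 CPM, 10058-F4 embryos 37.4 to 93.1 with a median of 55.6, and control embryos 23.0 to 42.0 with a median of 25.5. Every embryo library was far below every oocyte library, and the inhibitor libraries stayed somewhat above the controls. The log2 difference from oocytes was -3.04 ± 0.21 (adjusted p = 1.68e-11) and -2.88 with series as a term (2.69e-06). Control embryos of the oocytes' series differed by -3.83. Shcbp1, a spindle midzone protein, stood at 65.3, 52.7, 64.6 and 67.6 CPM, then 4.06 to 18.1 (median 6.14) and 5.50 to 20 (median 11.5), with a direct value of -2.85 and -3.45 with series as a term.

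Several known oocyte transcripts were part of these falls. Plat, the tissue plasminogen activator translated during maturation, was at 969, 1255, 1048 and 1446 CPM, then 287 to 462 (median 310.4) under the inhibitor and 182 to 236 (median 204) in control embryos. The 3 groups did not overlap, and 10058-F4 embryos had come most of the way down (-1.86, -1.95 with series as a term, against -2.53 in control). Mos, the kinase that holds the egg at metaphase II, was at 143, 185, 150.1 and 211 CPM, 23.9 to 83.5 (median 53.5) and 9.35 to 20.2 (median 13.4). It too fell part way, with a log2 value of -1.62 against -3.66 in control embryos, and its difference from control was 2.04 ± 0.22 (6.64e-08). Its call against oocytes was made with series as a term (-1.73, adjusted p = 0.049) and not in the fit of all 26 libraries. Zp3, the sperm receptor of the egg coat, was at 138, 173, 147 and 145 CPM, 39.6 to 60.8 (median 47.8) and 33.4 to 49.1 (median 38.6). Its value against oocytes was -1.65 (adjusted p = 7.4e-10) and -1.81 with series as a term, and its difference from control embryos, 0.26, did not pass the test (0.236). Tle6, of the subcortical maternal complex, was at 736, 776, 716 and 968 CPM, 273 to 534 (median 389.9) and 173 to 519.9 (median 271), a direct difference of -0.98 and -1.61 with series as a term.

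Further falls made with and without series as a term included the translation factor subunit Eif3l (-2.12, and -4.03 with series as a term), the nuclear lamina protein Prr14 (-2.25 and -2.70), the RNA polymerase II subunit Polr2g (-1.92 and -1.81), the Mediator subunit Med7 (-1.88 and -2.01) and the ATP synthase subunit Atp5j (-2.07 and -4.37). Fbxw13, Tmx3 and Abhd17a were the remaining 3 of the 10 largest. In the fit of all 26 libraries the call of Atp5j was lost. Besides the kept genes, 75 genes fell part way, less than in control embryos by the test, and 32 fell further than in control embryos.

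Among genes of at least 10 CPM in the higher group whose groups did not overlap and that were called higher both directly and with series as a term, predicted genes left out, the largest direct rise was that of Hmgb3, a chromatin protein of the high mobility group (chrX:71555918-71560676). It was at 16.1, 14.1, 18.5 and 25.2 CPM in oocytes, 50 to 85.4 (median 64.5) under the inhibitor and 53.5 to 89.8 (median 59.3) in control embryos. The embryo groups overlapped each other and not the oocytes. The direct difference was 1.79 ± 0.19 (adjusted p = 8.25e-08) and 1.09 with series as a term (0.0426). Dnajb6, an Hsp40 cochaperone, rose from 91.5, 152, 144 and 99.3 CPM to 344 to 426 (median 405), with 373 to 466 (median 443) in control embryos. Its value was 1.72, and 0.68 with series as a term, and the 2 control groups differed by 1.04 (4.2e-05).

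Several nucleolar proteins were among these rises. Rrp7a, Surf6 and Rrs1, which act in ribosome assembly, had direct log2 differences of 1.74, 1.55 and 1.5, and 1.54, 1.41 and 1.57 with series as a term. Rrp7a was at 18.6, 19.5, 17.2 and 13.2 CPM in oocytes and 43.8 to 65.5 (median 55.3) under the inhibitor, with 29.0 to 49.9 (median 42.9) in control embryos, so that both embryo groups lay above the oocytes. Npm1, the abundant nucleolar chaperone, was at 388, 416, 358 and 513 CPM, then 678 to 783 (median 725) and 678 to 856 (median 753). It rose by 0.81 ± 0.09 (adjusted p = 2.62e-07), 0.73 with series as a term, and did not differ from control embryos by the test (-0.04 ± 0.08, 0.89). Ncl, the other major nucleolar protein, did not follow: it was at 900.0, 1158, 914 and 1219 CPM, then 921 to 1388 (median 1122) and 1124 to 1753 (median 1516), and was kept at oocyte level (0.11). Its call against control embryos was lost in the fit of all 26 libraries. Klf17, a factor of early genome activation that oocytes already hold, was at 520.0, 587, 663 and 586 CPM, then 749 to 987 (median 815) and 809 to 1112 (median 907), a rise of 0.53 and 0.83 with series as a term. Rrs1 lost its call in the fit of all 26 libraries.

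Some of the largest direct differences also stood between the control embryos of the 2 library series. Chst15, a sulfotransferase, was at 114, 46.5, 119 and 104 CPM in oocytes, 0.0799 to 3.50 under the inhibitor and 0 to 2.76 in control embryos of that series. The direct value of -5.97 became 1.59 with series as a term (adjusted p = 0.321), and the 2 control groups differed by -7.56 (3.53e-06). Hes1, a target of Notch signalling, was at 6.41, 3.50, 23.8 and 21.8 CPM against 0 to 0.738, with -5.89 directly, -0.66 with series as a term and -5.23 between the control groups. Svbp, a further fall not called with series as a term (-2.01), lost its direct call (-3.11) without oocyte replicate 1 or 4. Among rises, Tmed2 (3.14), Nsa2 (2.52) and Timm23 (2.47) gave 0.24, 0.52 and -0.46 with series as a term, and the control groups differed by 2.90, 2.00 and 2.94. For these 6 genes the oocyte-to-embryo change was not called within the oocytes' own series.

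**Figure D4:**
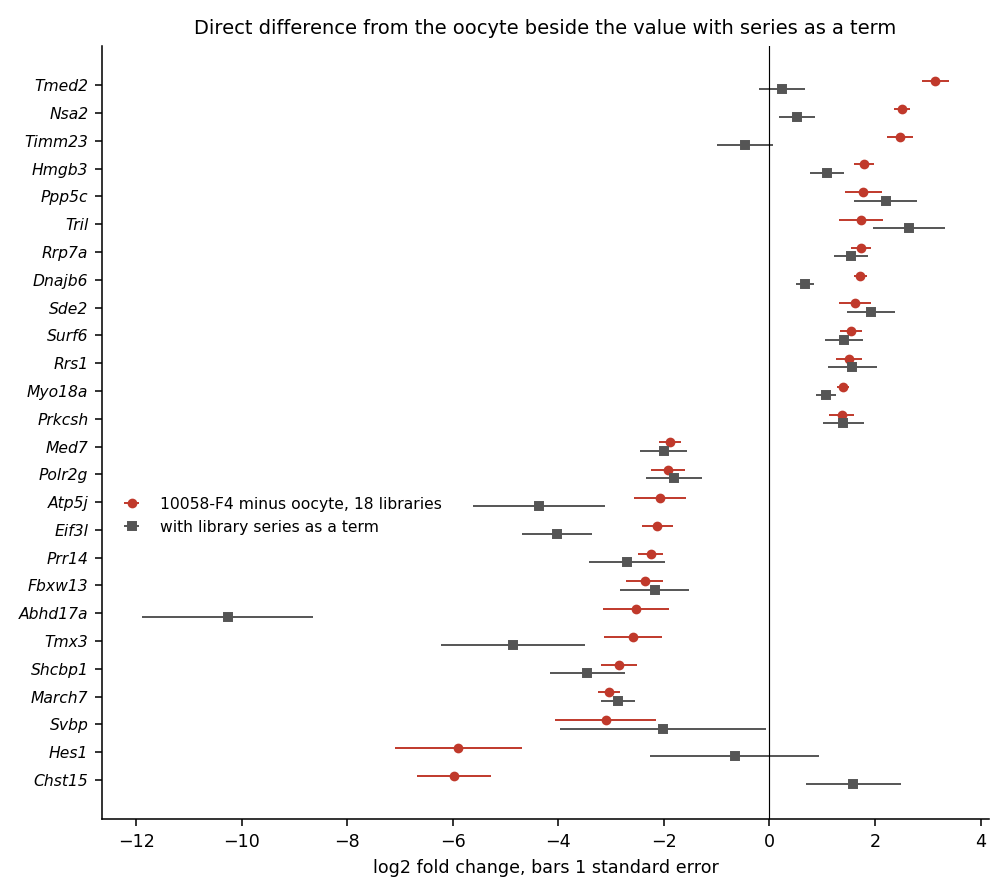
Log2 fold change of 10058-F4 embryos against MII oocytes for 26 genes, from the fit of 18 libraries (circles) and with library series as a term (squares), with bars of 1 standard error. March7, Rrs1 and Prkcsh lie at almost the same place in both fits, while Hes1, Tmed2 and Nsa2 move to within 1 of zero and Chst15 and Timm23 cross it.

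A further 104 genes were higher and 162 lower in 10058-F4 embryos than in both oocytes and control embryos, with no call between control embryos and oocytes. Outside the kept genes, another 4 were called in opposite directions with and without the inhibitor. Some kept falls were too, such as H1foo. Of the 363 kept falls, 58 were called different from oocytes under the inhibitor and only 45 of these were lower, as in control embryos. Wdr75, a factor of rRNA transcription and processing, was at 92.1, 96.8, 48.5 and 73.0 CPM in oocytes, 22.4 to 41.9 (median 30.7) under the inhibitor and 40.3 to 83.3 (median 54.8) in control embryos. Its 10058-F4 range was below all oocytes and barely met the controls, with log2 differences of -1.25 (adjusted p = 5.67e-05) and -0.87 (0.00176). Vwde was at 22.9, 27.6, 43.1 and 25.3 CPM, then 7.55 to 16.0 (median 10.1) and 14.7 to 27.3 (median 18.4). Ccdc124, a ribosome-associated protein, was higher, at 40.0 to 74.2 (median 55.2) against 21.9, 32.1, 17.4 and 31.6 in oocytes and 24.6 to 39.7 in control embryos. Its direct rise of 1.12 was not called with series as a term (0.37). In the fit of all 26 libraries the differences of these 3 genes from control embryos were not called. Vcan and Vim, mRNAs of cumulus cells, were at 0 to 0.508 CPM in 2 of 4 oocyte libraries and at 42.9 and 16.5, and at 11.2 and 12.4 CPM, in the other 2, so their calls against oocytes rest on those 2 libraries. Vcan was at 18.5 CPM in inhibitor-series control replicate 2 and at 0 to 1.44 in the other controls of that series. Its call against control embryos was lost without that library or 10058-F4 replicate 1, 3, 4, 7 or 8. Efcc1 was at 63.0 CPM in 1 10058-F4 library, with a group median of 0.480, and at 0 in oocytes.

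**Figure D5:**
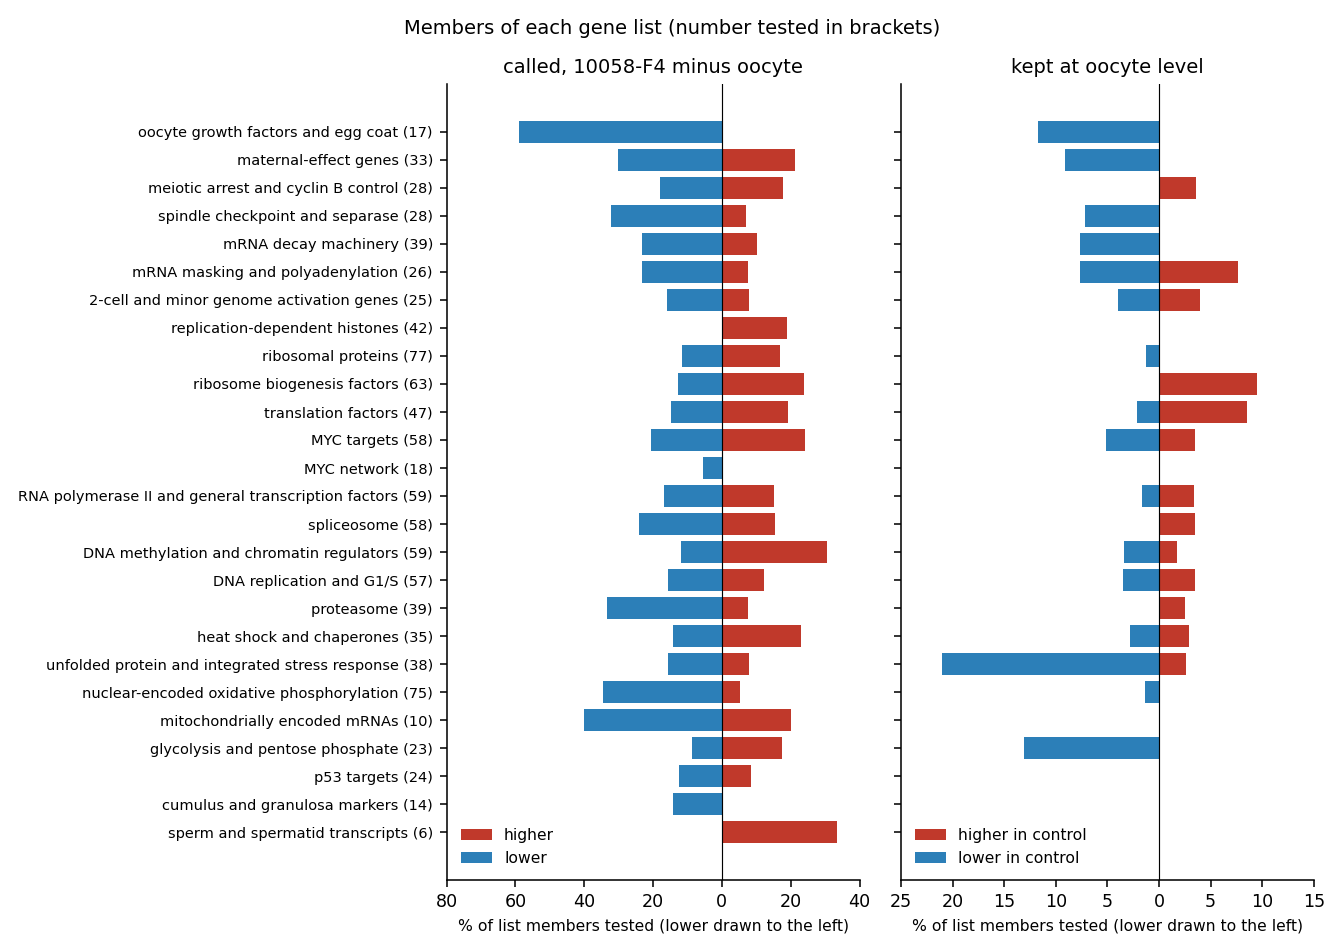
For each of 26 gene lists, bars give the percentage of tested members called higher (right) or lower (left) in 10058-F4 embryos than in oocytes (left panel) and the percentage kept at oocyte level with control embryos higher or lower (right panel), with the number tested in brackets. The longest bars on the lower side are oocyte growth factors and egg coat (10 of 17) in the left panel and the unfolded protein response (8 of 38) in the right.

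By function, genes of the egg coat and oocyte growth factors had the highest share of falls among the 26 lists. Of 17 oocyte growth factor and egg coat genes tested, 10 were lower and 0 higher under the inhibitor, where 8.70% and 8.68% of all genes were (median log2 -0.61, and 0.02 over all genes). With series as a term 3 were lower, Zp1, Zp2 and Zp3, where 3.32% of all genes were lower and 1.81% higher. Astl, the protease that hardens the egg coat, had a value of -0.74 against -2.31 in control embryos. Of 33 maternal-effect genes, 7 were higher and 10 lower, 3 and 7 with series as a term. The lower ones included Nlrp14 (-1.85), Nlrp2 (-1.41) and Padi6 (-0.91). Nlrp5, of the same maternal complex, was not called (0.18, 835 to 965 CPM in oocytes and 675 to 1431 under the inhibitor). Of 28 genes of meiotic arrest and cyclin B control, 5 were higher, among them Cdc20 (0.94), and 5 lower, 2 and 2 with series as a term. Of 28 of the spindle checkpoint, 2 were higher and 9 lower, among them Bub1 (-1.23) and Knl1 (-1.09), and 0 and 2 with series as a term.

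Among genes that store and remove maternal mRNA, 4 of 39 decay factors were higher and 9 lower, 3 and 3 with series as a term. Over all genes, 8.68% were higher and 8.70% lower directly, and 1.81% and 3.32% with that term. Cnot1 (-1.0) and Cnot11 (-1.03), subunits of the CCR4-NOT deadenylase, were lower also with series as a term, as was the masking and polyadenylation factor Cpeb1 (-1.32, and -0.87). Of the 26 genes of masking and polyadenylation, 2 were higher and 6 lower, 0 and 5 with series as a term. Btg4, the adaptor that brings deadenylase to maternal mRNA, was not called: it stood at 1834, 1857, 2027 and 1860.2 CPM in oocytes, 1839.5 to 2233 (median 2139) under the inhibitor and 1768 to 2180.0 (median 2099) in control embryos, and the groups overlapped. Dcp1a, Upf1 and Lsm14b were the kept members.

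In growth and translation, 15 of 63 ribosome biogenesis factors were higher and 8 lower than in oocytes under the inhibitor, 5 and 6 with series as a term. Over all genes, 8.68% were higher and 8.70% lower directly, and 1.81% and 3.32% with that term. In control embryos 21 of the 63 were higher and 8 lower, where 10.2% and 10.3% of all genes were. Of these, 6 rises were kept at oocyte level (1.17% of all genes were): Ncl, Utp18, Bms1, Wdr43, Ddx21 and Noc3l. The count is not firm, since single libraries decide 4 of the calls against control embryos. That of Utp18 was lost without 10058-F4 replicate 5, 7 or 8 or control replicate 2, 5 or 6, and that of Ddx21 without 10058-F4 replicate 1, 7 or 8 or control replicate 4, 5 or 8. That of Noc3l was lost without 10058-F4 replicate 1, 4, 5 or 7 or control replicate 1, 4, 5 or 6, and that of Wdr43 without 10058-F4 replicate 1 or control replicate 7. Bms1, a GTPase of the small subunit, was at 1059, 1311, 1106 and 1204 CPM in oocytes, 1081 to 1579 (median 1371) under the inhibitor and 1712 to 2036 (median 1866) in control embryos. It overlapped the oocytes and not the controls, and differed from the latter by -0.43 ± 0.07 (adjusted p = 0.000128). Its difference from oocytes, 0.23 (0.0603), passed the threshold with DESeq2, limma voom and the replicate block, and, with log2 values of 0.25 to 0.29, without 10058-F4 replicate 1, 3 or 7, control replicate 4, 5, 6 or 7 or oocyte replicate 2. Of 77 ribosomal protein genes, 13 were higher and 9 lower, with 0 and 8 when series was a term, and their median was -0.08 directly and -1.04 with that term. These genes have many near-identical pseudogenes, between which counting can split reads. Of 47 translation factors, 9 were higher and 7 lower, 1 and 4 with series as a term. Kept were 4 rises (Eif4e, Eif4e1b, Eif5 and Eif3a) and 1 fall (Eif6). The call of Eif5 against control embryos was lost without any 1 of 11 libraries (10058-F4 replicate 1, 2, 3, 5, 7 or 8 or control replicate 1, 2, 4, 5 or 7), and that of Eif3a without 10058-F4 replicate 1.

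Of 58 listed targets of Myc, 14 were higher and 12 lower than in oocytes under the inhibitor, against 16 and 9 in control embryos. The fit with series as a term called 3 higher and 6 lower. Over all genes the direct shares were 8.68% and 8.70%, and those with series as a term 1.81% and 3.32%. Higher ones included Npm1 (0.81), the nuclear transport GTPase Ran (1.06) and the snoRNP protein Nop56 (1.09), and lower ones the chaperonin subunit Cct5 (-1.18). Of these, Npm1 and Cct5 were also called with series as a term. The kept members were Eif4e and Ncl, higher in control embryos, and Phb2, Srm and Mcm5, lower in control embryos. Srm, the spermidine synthase, lost its call against control embryos in the fit of all 26 libraries. Of 18 genes of the Myc network, 0 were higher and 1, Ruvbl2 (-0.74), was lower. The fit with series as a term called 1 higher and 0 lower. Max, the dimer partner, was at 145, 169, 156 and 189 CPM in oocytes, 176 to 226 (median 198) under the inhibitor and 168 to 229 (median 201) in control embryos. Its difference from oocytes, 0.28 (adjusted p = 0.0657), passed the threshold with DESeq2, with series as a term (0.55, 0.0456) and in 5 fits without 1 library: 10058-F4 replicate 1, control replicate 4, 5 or 7, or oocyte replicate 4.

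For the nuclear machinery, 9 of 59 genes of RNA polymerase II and its general factors were higher and 10 lower, 2 and 5 with series as a term, with Polr2d (-1.51), Polr2g (-1.92) and Cdk7 (-1.18) lower also with series as a term. Over all genes, 8.68% were higher and 8.70% lower directly, and 1.81% and 3.32% with series as a term. Of 58 spliceosome genes 9 were higher and 14 lower, 2 and 3 with series as a term. Of 59 DNA methylation and chromatin regulators 18 were higher and 7 lower, and 13 and 4 with series as a term. The higher ones included the imprint factor Zfp57 (0.74), the DNA methyltransferase Dnmt3a (0.62) and the histone methyltransferase Kmt2b (0.76), and Hdac2 (-1.23) was lower. Of 42 replication-dependent histone genes 8 were higher and 0 lower (5 and 0 in control embryos, and 3 and 0 with series as a term), with Hist1h1a (1.08) and Hist1h2bk (1.09) called also with series as a term. Of 57 DNA replication genes 7 were higher, among them the licensing inhibitor Gmnn (1.27), and 9 lower, 4 and 3 with series as a term. Of 25 genes of the 2-cell stage and minor genome activation, 2 were higher and 4 lower, 2 and 3 with series as a term. Against control embryos of the same series, 9 of the 25 were lower and 1 higher under the inhibitor. Over all genes, 3.35% were lower and 5.06% higher in that comparison. The median log2 difference of the list from oocytes was 0.53 in these control embryos and -0.11 under the inhibitor, and -0.24 for the latter with series as a term. In these control embryos, 5 were higher and 2 lower than in oocytes, and 1 rise and 1 fall were kept.

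Genes of oxidative phosphorylation and of the proteasome were lower more often than higher. Of 75 nuclear genes of oxidative phosphorylation 26 were lower and 4 higher (12 and 0 with series as a term), against 37 and 5 in control embryos. Their median was -0.98, -0.87 with series as a term, and -1.17 in control embryos of the oocytes' series. Ndufv1 (-1.57) of complex I, Sdhd (-1.32) of complex II and Atp5j of the ATP synthase were among those called in both fits. The 10 mitochondrially encoded mRNAs tested gave 2 higher and 4 lower, 2 and 0 with series as a term, and 6 and 0 in control embryos of the oocytes' own series. Their median turned from -0.41 to 0.82 with that term and was 1.24 in those control embryos, and mt-Nd6 turned from -1.06 to 1.36 (adjusted p = 0.000802) with series as a term. It lies opposite other mitochondrial genes, and the strand setting of the counting is unknown here. mt-Co1, a catalytic subunit of complex IV, was not called directly (0.27) and was called with that term (1.36, 0.0196). The share of counts from mitochondrial mRNA was 0.121% to 0.642% in control embryos of the inhibitor series and 0.878% to 1.24% in those of the other series. Its part in these values was not tested. Of 39 proteasome genes 13 were lower and 3 higher (5 and 0 with series as a term). Over all genes, 8.70% were lower and 8.68% higher directly, and 3.32% and 1.81% with that term. The largest direct falls of the proteasome list were Psma5 (-2.0), Psmb4 (-1.42) and Psmb1 (-1.39), with Psmc4 (-1.11) called also with series as a term. Of 35 heat shock and chaperone genes 8 were higher and 5 lower, and with series as a term the balance turned to 1 and 6. Dnaja1, an Hsp40, was kept, at 0.27 directly, and -1.12 with series as a term (0.000133). Of 23 genes of glycolysis and the pentose phosphate pathway 4 were higher and 2 lower, 1 and 2 with series as a term, and Taldo1, Aldoa and Ldhb were kept falls, Ldhb not without 10058-F4 replicate 4 or 5.

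Of 24 p53 targets 2 were higher and 3 lower, 1 and 1 with series as a term. Over all genes, 8.68% and 8.70% were called directly, and 1.81% and 3.32% with that term. Of 14 cumulus and granulosa genes tested 0 were higher and 2 lower, Vcan and Vim, and 3 were lower with series as a term. Of 6 sperm and spermatid genes tested 2 were higher, Odf2 (1.02) and Hook1 (0.36), and with series as a term Odf2. The call of Hook1 was lost without any 1 of 10 libraries (10058-F4 replicate 4, 5, 7 or 8, control replicate 1, 2 or 8, or oocyte replicate 1, 2 or 4). Odf2 is also a centrosome gene that oocytes express, at 168, 264, 201 and 209 CPM, against 329.6 to 552 (median 431) under the inhibitor and 251 to 357 (median 345) in control embryos.

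The classes also differed in level and in annotated features. Kept falls had a median of 103 CPM in oocytes, kept rises 202, genes lower with and without the inhibitor 77.2 and genes higher in both 70.6, where all genes tested had 10.1. Level and call are linked, because a gene with more counts passes a test more easily. The median length of the longest annotated transcript was 4174 bases for kept falls and 4011 for kept rises, beside 3208.5 and 3473 for genes lower or higher in both and 3049 for all genes. Protein-coding genes made up 98.6% and 97.8% of the kept classes, 89.9% and 90.2% of the changed classes and 82.3% of all genes tested.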

How the data were processed

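The authors deposited a table of read counts per gene for 26 libraries, made with a stranded total RNA kit for low input. Per the submitters' processing notes, cutadapt 1.7.1 and STAR 2.5.0a were used with the GRCm38 genome. For the step from alignments to counts, the tool, strandedness and gene models are not given in the labels or notes. Of 55401 gene IDs, 55141 matched a GENCODE vM21 symbol, and the other 260 held 0.00563% of counts.

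The main fit held 18 libraries, the 7 of 10058-F4 embryos, the 7 controls of their series and the 4 of oocytes, in edgeR 4.0.16 (R 4.3.3) with TMM scaling, filterByExpr (minimum count 10, minimum total 15) and the quasi-likelihood test. Benjamini-Hochberg adjusted p-values under 0.05 over all genes tested were called. CPM values use the TMM-scaled totals. The fit with series as a term held 22 libraries. The script was tested on simulated counts.

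Members and gene lists were chosen with earlier results of these data known. Genes were named by rule: the 10 largest rises and falls called with and without series as a term, with groups that do not overlap and at least 10 CPM, and the 3 largest in each direction not called with that term. To these came the 8 largest kept rises and falls, 5 in each direction changed under the inhibitor alone, the 3 smallest p-values per list and a set of known oocyte and embryo genes. Further list members were named after their values were seen, as were the kept list members. Alternatives were DESeq2 1.42.0, limma voom 3.58.1, other scaling, filtering, bounds and sets of libraries, a replicate block and leaving out each library. Results of 2 genes are not reported here.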

Additional observations from a re-analysis of the deposited data

Results flagged for a closer look

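In 10 of 155 groups of 4 or 7 libraries, 1 library stood apart from the others by Dixon's criterion, where chance gives about 1 in 20 groups, or 7.75. Among oocytes, replicate 3 had the lowest share of mitochondrial mRNA, 0.290% against a group median of 0.488%. Btg4 was highest in that same replicate, at 2027 CPM (median 1858). Atp5j, an ATP synthase subunit, was highest in oocyte replicate 4, at 31.1 CPM (median 15.7). Hexim1 was at 1.08 CPM in oocyte replicate 2 and at 0 in the other oocyte libraries.

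Among 10058-F4 embryos, Plat was highest in replicate 7, at 462 CPM (median 310.4), nearer to the oocytes than its fellows. Efcc1 was at 63.0 CPM in replicate 5 (median 0.480), and Dnajb6 was lowest in that replicate, at 344 CPM (median 405). Hist1h3e was lowest in replicate 1, at 2.87 CPM (median 19.9), and Sde2 in replicate 8, at 15.9 CPM (median 28.2). Usp17lc, a gene of early genome activation, was highest in replicate 3, at 3.16 CPM (median 0.126).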

How the results depend on the processing

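The 1339 higher and 1342 lower genes of 10058-F4 embryos against oocytes became 560 and 537 with all 26 libraries and 284 and 522 with series as a term, and 1146 to 1443 and 1128 to 1326 without 1 library. The 1845 genes changed with and without the inhibitor became 716 with all 26 libraries, 221 when membership was set by the control embryos of the alpha-amanitin series, and 1565 to 1829 without 1 library. The 544 kept genes became 333 with a bound of 1.5-fold, 182 with all 26 libraries and 460 to 550 without 1 library. For kept rises (181) the counts were 39 with all 26 libraries, 273 with DESeq2, 107 with the replicate block and 114 to 189 without 1 library, and for kept falls (363) 191 with the tighter bound, 143 with all 26 libraries and 322 to 363 without 1 library. Between control groups, DESeq2 gave 833 higher and 539 lower, no filter 486 lower, and leaving out 1 library 231 to 488 and 139 to 255. For control embryos of the alpha-amanitin series against oocytes, DESeq2 gave 285 higher and 485 lower, and leaving out 1 library 63 to 291 and 146 to 434. With series as a term, the log2 difference from oocytes turned to -2.26 for Ccdc66, 1.59 for Chst15, -1.12 for Dnaja1, -0.24 for Eif4a1, -0.21 for H1foo, -0.48 for Hist2h2aa2, 0.20 for Neo1, -0.81 for Pgk1, -0.10 for Rpl21, -0.56 for Rpl29, -0.15 for Sms, -0.46 for Timm23, -0.014 for Txlng, -0.12 for mt-Atp6 and 1.36 for mt-Nd6. Without 1 library, that of Hexim1 ran from -6.10 to 0.00, the latter without oocyte replicate 2, the one oocyte library that holds it. Over 193 named genes and all settings, a direction was kept but a call lost in 157 cases against oocytes and 308 against control embryos, and gained in 62 and 38. Apart from these constructions, the cause was not tested. Replicate numbers are shared by the labels but same-numbered libraries did not deviate together (correlations -0.0134 to 0.0287), and the replicate block gave 1126 higher, 1012 lower, 1423 changed, 430 kept and 323 kept falls. A gene with fewer than 3 counts in a library, 0.110 to 0.161 CPM, could not be told from absent.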
